A study of Homo sapiens with 4 samples.

Results

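The 58 genes described here encode transcription factors of embryonic development that lie outside the HOX clusters. They belong to the PAX (paired box), Sine oculis (SIX2, SIX3, SIX6), LIM homeobox, NKX, DLX, GATA, T-box, forkhead, IRX, head and brain homeobox, craniofacial and limb homeobox and zinc finger groups. They were taken by name from a list drawn up with earlier results of these data known, with no threshold on a measured value, and were all found among 19863 protein-coding genes of the human annotation. For each gene the 500 bp windows with a midpoint within 3000 bp of the start site of its canonical transcript were taken, 12 windows per gene and 696 in all. No window was shared by members. The data are a table of 956365 such windows on the human genome build hg19, made from libraries of FADU cells, a human hypopharyngeal carcinoma line. A window is called listed when it is in the table and absent when it is not. Of the 696 windows around the members, 328 were listed.

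The study prepared 1 library for each of 4 conditions. Cells carrying a scrambled control or a knockdown of TET1 were grown under normoxia or under hypoxia, with oxygen at 1%. Hypoxia lasted 18 h for the scrambled control and 19 h for the TET1 knockdown. The sample titles name a hydroxymethylation assay, the labels describe an antibody to 5-methylcytidine and the methods describe chemical labelling of 5hmC, so the mark behind the windows is uncertain. The names of the 4 columns of values match no sample, so their values, and with them the depth and any difference between conditions, are not analysed here. A listed window therefore tells neither the condition nor the number of reads, and an absent window is not shown to be free of reads.

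TET enzymes, including TET1, oxidise 5mC to 5hmC, and both marks occur in mammalian DNA mainly at CpG sites, where a C is followed by a G. Transcription factors of the embryo switch on the programs of organs and cell types and are mostly silent in adult tissues that do not need them. Many of their genes lie in broad CpG-rich regions that are held by Polycomb repressors in such tissues, and these regions are well known to gain DNA methylation in carcinomas. A promoter of an active gene, by contrast, usually holds a narrow CpG-rich stretch that is free of methylation.

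The sequences of 6 stretches of 200 bases show the kinds of DNA compared below. They were read from GRCh37, which has the coordinates of hg19, on the strand of the gene and 5′ to 3′, and none overlaps an annotated exon. CpG sites are in capitals. The first pair comes from neighbouring windows upstream of NKX6-2, a homeobox factor of the spinal cord and of oligodendrocytes. The upper stretch, chr10:134600651-134600850 on the minus strand, has 26 CpG sites and lies in a listed window, and the lower one, chr10:134600151-134600350, has 25 and lies in an absent window nearer to the start.
NKX6-2, listed window: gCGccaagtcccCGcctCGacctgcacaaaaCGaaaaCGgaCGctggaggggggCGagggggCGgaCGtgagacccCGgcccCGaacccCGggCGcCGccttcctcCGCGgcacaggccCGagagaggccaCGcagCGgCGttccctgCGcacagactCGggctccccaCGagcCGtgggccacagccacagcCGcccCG
NKX6-2, absent window: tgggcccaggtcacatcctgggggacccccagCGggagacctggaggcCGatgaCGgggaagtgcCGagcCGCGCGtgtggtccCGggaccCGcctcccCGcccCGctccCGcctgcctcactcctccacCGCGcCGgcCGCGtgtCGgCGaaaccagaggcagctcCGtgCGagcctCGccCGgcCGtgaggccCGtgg
A listed and CpG-rich window away from a start is shown for EMX1, a homeobox factor of the developing cerebral cortex, at chr2:73143151-73143350 on the plus strand, with 24 CpG sites.
EMX1, listed window: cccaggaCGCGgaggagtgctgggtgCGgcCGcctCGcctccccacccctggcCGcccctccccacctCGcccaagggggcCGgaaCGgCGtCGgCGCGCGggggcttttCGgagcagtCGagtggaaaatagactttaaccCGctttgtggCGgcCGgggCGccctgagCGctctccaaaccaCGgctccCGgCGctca
The last 3 stretches are the 200 bases directly before the start sites of the gene with the most listed windows, LHX3 (chr9:139096975-139097174, minus strand, 22 CpG sites), and of 2 genes with none, OTX2 (chr14:57277198-57277397, minus strand, 6 CpG sites) and PAX3 (chr2:223163718-223163917, minus strand, 16 CpG sites).
LHX3, before the start: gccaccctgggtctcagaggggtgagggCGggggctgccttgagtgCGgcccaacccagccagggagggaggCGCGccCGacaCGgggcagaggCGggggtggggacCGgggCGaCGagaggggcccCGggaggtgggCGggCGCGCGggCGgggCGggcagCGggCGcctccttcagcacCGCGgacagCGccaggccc
OTX2, before the start: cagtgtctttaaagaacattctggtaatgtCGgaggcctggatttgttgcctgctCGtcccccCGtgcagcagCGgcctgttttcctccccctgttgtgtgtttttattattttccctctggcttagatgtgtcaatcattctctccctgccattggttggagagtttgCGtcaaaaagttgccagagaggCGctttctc
PAX3, before the start: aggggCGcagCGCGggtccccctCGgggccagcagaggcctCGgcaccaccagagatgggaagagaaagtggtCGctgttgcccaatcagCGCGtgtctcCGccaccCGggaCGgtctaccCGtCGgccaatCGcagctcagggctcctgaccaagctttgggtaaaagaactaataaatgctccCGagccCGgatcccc

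Around the members 47.1% of windows were listed (328 of 696, 95% Wilson interval 43.4% to 50.8%), against 38.1% around all protein-coding genes. The genes compared include those of the X and Y chromosomes, where no member lies. Around the 18978 autosomal protein-coding genes the share was 39.3%. Here and below the intervals cover counting error only and treat neighbouring windows as independent, which they are not. The members' windows were richer in CpG sites, with a mean of 28.4 per window against 13.6 around all genes, and had a GC content of 57.3% against 49.0%. Each window was therefore set against a predicted share, the share listed among all windows of the autosomes that matched it in CpG number and GC content. The predicted share was 38.6% for the members and 30.02% for all genes. The ratio of listed to predicted windows was 1.22 for the members (interval 1.12 to 1.32) and 1.27 for all genes (1.26 to 1.28). Windows near the members were thus listed more often than those near other genes, and the ratio over all windows together was not higher. This ratio mixes CpG classes. In windows with 0 to 9 CpG sites it was 1.10 for the members and 1.54 for other genes. These were 102 of the members' windows and 136028 of the 237620 of other genes. The ratios were 1.26 and 1.24 with 10 to 19 sites and 1.23 and 1.05 with 20 to 29. With 30 to 39 they were 1.10 and 0.87, and with 40 or more 1.34 and 0.81. These class ratios mix distances from the start, which differed between the members and other genes. With 20 to 29 sites, 22 of the members' 181 windows lay within 500 bp of the start, against 5437 of 18087 for other genes. With 40 or more sites the ratio within 500 bp was 0.68 for both.

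By gene, the median number of listed windows was 6 of 12 for the members and 4 for all genes, with SDs of 3.19 and 3.37. At least 6 windows were listed for 33 members (56.9%), against 38.6% of all genes. At least 11 were listed for 5 members (8.62%), against 5.08% of all genes. None was listed for 4 members (6.90%), against 15.1% of all genes. The genes compared decide the direction of the difference. The members stood 9.02 percentage points above all protein-coding genes, but 1.91 points below the 9129 genes with at least 167 CpG sites in their windows, the number at ISL1, which had the fewest of the members. Of the windows of those CpG-rich genes 49.0% were listed. That set is cut at the lowest member and is not matched to the members, whose median was 329 CpG sites.

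The listed windows were not spread evenly around the start sites. Between 2500 and 1000 bp upstream 62.6% of the members' windows were listed (109 of 174, interval 55.3% to 69.5%), against 38.7% for all genes, and the ratio to the prediction was 1.57 against 1.43. In the last 1000 bp before the start the share was 34.5% for the members and 40.7% for all genes, with ratios of 0.89 and 1.19. In the first 500 bp downstream it was 27.6% for the members (16 of 58, interval 17.8% to 40.2%) and 24.6% for all genes, with ratios of 0.76 and 0.69. A low point around the start was seen in both. In the 500 bp before the start the members' share was 25.9% (interval 16.3% to 38.4%), an interval that holds the 34.8% of all genes. From 500 to 1000 bp downstream the shares were 51.7% for the members and 37.4% for all genes. From 1000 to 3000 bp downstream they were 45.7% and 41.2%, and here the ratio of the members was the lower, 1.20 against 1.46. All upstream windows of the members together were listed in 50.6%, against 38.4% for all genes, with ratios of 1.28 and 1.32. Downstream the shares were 43.7% and 37.8%, with ratios of 1.15 and 1.23. On both sides the ratio over all windows together was not higher in the members. The members' windows held more CpG sites, 25.3 per window upstream and 31.4 downstream, against 12.5 and 14.8 for all genes. As given above, the ratios differed between CpG classes, which themselves mixed distances from the start.

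The window that holds the start site was listed for 14 members (24.1%, interval 15.0% to 36.5%), against 26.7% of all protein-coding genes and 27.4% of the autosomal ones. The 14 members were ALX1, BARX1, DLX5, EMX1, EMX2, FOXD3, LHX3, LHX6, LHX8, LHX9, NKX2-5, SIX6, TBX15 and ZIC1. The start windows of the members held 41.5 CpG sites on average, against 35.8 over all genes. The 14 listed start windows had a mean of 36.8 CpG sites and the 44 absent ones 43.0. CpG number alone did not separate them. The start window of EMX1 held 64 CpG sites and that of BARX1, a homeobox factor of the stomach and the molar teeth, held 60, and both were listed. The start windows of EN2 and NKX6-2 held 82 CpG sites, the most among the members, and that of OTX2 held 14, the fewest, and all 3 were absent.

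CpG-dense windows, those with at least 40 CpG sites, made up 23.0% of the members' windows and 8.61% of the windows of all genes. Within 500 bp of the start they were listed in 12 of 57 for the members (21.1%, interval 12.5% to 33.3%) and in 19.5% for other protein-coding genes. From 500 to 3000 bp they were listed in 56 of 103 for the members (54.4%, interval 44.8% to 63.7%) and in 34.0% of 6225 for other genes. These dense windows were similar in CpG number, with means of 53.2 and 51.9. They also lay in similar surroundings, since the ratio of listed to predicted windows in the 10 Mb regions that hold them averaged 1.05 and 1.07. Their distances differed, as 45 of the 103 lay from 1500 to 3000 bp for the members and 1402 of the 6225 for other genes. From 500 to 1500 bp the shares were 51.7% for the members (interval 39.2% to 64.1%) and 31.2% for other genes. From 1500 to 3000 bp they were 57.8% and 43.7%, and here the members' interval (43.3% to 71.0%) held the share of other genes. Among windows of the same distance with 10 to 19 CpG sites the members had 56.1% and other genes 59.7%, and with 20 to 29 they had 58.5% and 57.8%. With 30 to 39 CpG sites the shares were 52.7% and 46.7%.

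The dense windows away from the start belonged to 47 members, of which 19 had all of them listed, 15 none and 13 some. All 5 were listed for EMX1, all 4 for FOXD3 and all 3 for IRX1. NKX6-2 had 8 and 5 were listed. None of 3 was listed for FOXA2, and 1 of 6 was listed for IRX5 and 1 of 5 for FOXC1. The share at other paralogs of the same families was 49.0% (51 of 104). It was 41.2% at HOX genes (7 of 17), 34.3% at Polycomb genes (12 of 35) and 15.4% at cytosolic ribosomal protein genes (2 of 13). The difference from other genes was between 13.8 and 24.7 percentage points over 37 alternatives, which set the threshold at 30 or 50 CpG sites, used the 5′ end of the gene as the start, restricted the genes compared or left out each chromosome and each family in turn. The pattern was noticed in these data and its cause was not tested.

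The genes differed widely from each other. LHX3, which directs the formation of the pituitary and of motor neurons, was the only member with all 12 windows listed, where 5.11 were predicted. Its canonical start is at position 139096974 of chromosome 9, on the minus strand. FOXD3, a forkhead factor of the neural crest, had 11 listed windows in 1 unbroken run, and its ratio of 2.67 was the highest of the members. NKX2-5, a homeobox factor of the heart, also had an unbroken run of 11. EMX1 had 11 listed windows with a ratio of 2.47, and ALX4, a homeobox factor of the skull and limbs, had 11 with a ratio of 1.93. At ALX4 the window missing from the table was the one that holds the start. BARX1 had 10 listed windows and DLX5, a factor of the jaw and of bone, had 10. ZIC1, a zinc finger factor of the cerebellum, LHX2, a factor of the eye and forebrain, and TBX15, a T-box factor of the skeleton, had 9 each, with ratios of 2.12, 1.87 and 1.86.

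At the other end, no window was listed around PAX3 and PAX7, the closely related paired box factors of muscle progenitors and neural crest, TBX5, a T-box factor of the heart and forelimb, and OTX2, a homeobox factor of the forebrain and eye. The predicted numbers for these genes were 4.80, 5.32, 4.91 and 4.02 of 12. A single window was listed for GSX1, a homeobox factor of the forebrain, for FOXA2, a forkhead factor of the endoderm, for TBX18, a T-box factor of the ureter and heart, and for PAX5, the paired box factor of B cells. PAX1, a factor of the vertebral column, and LHX9, a factor of the gonads, had 2 each. The 2 of LHX9 were the window with the start and the next one downstream.

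**Figure D1:**
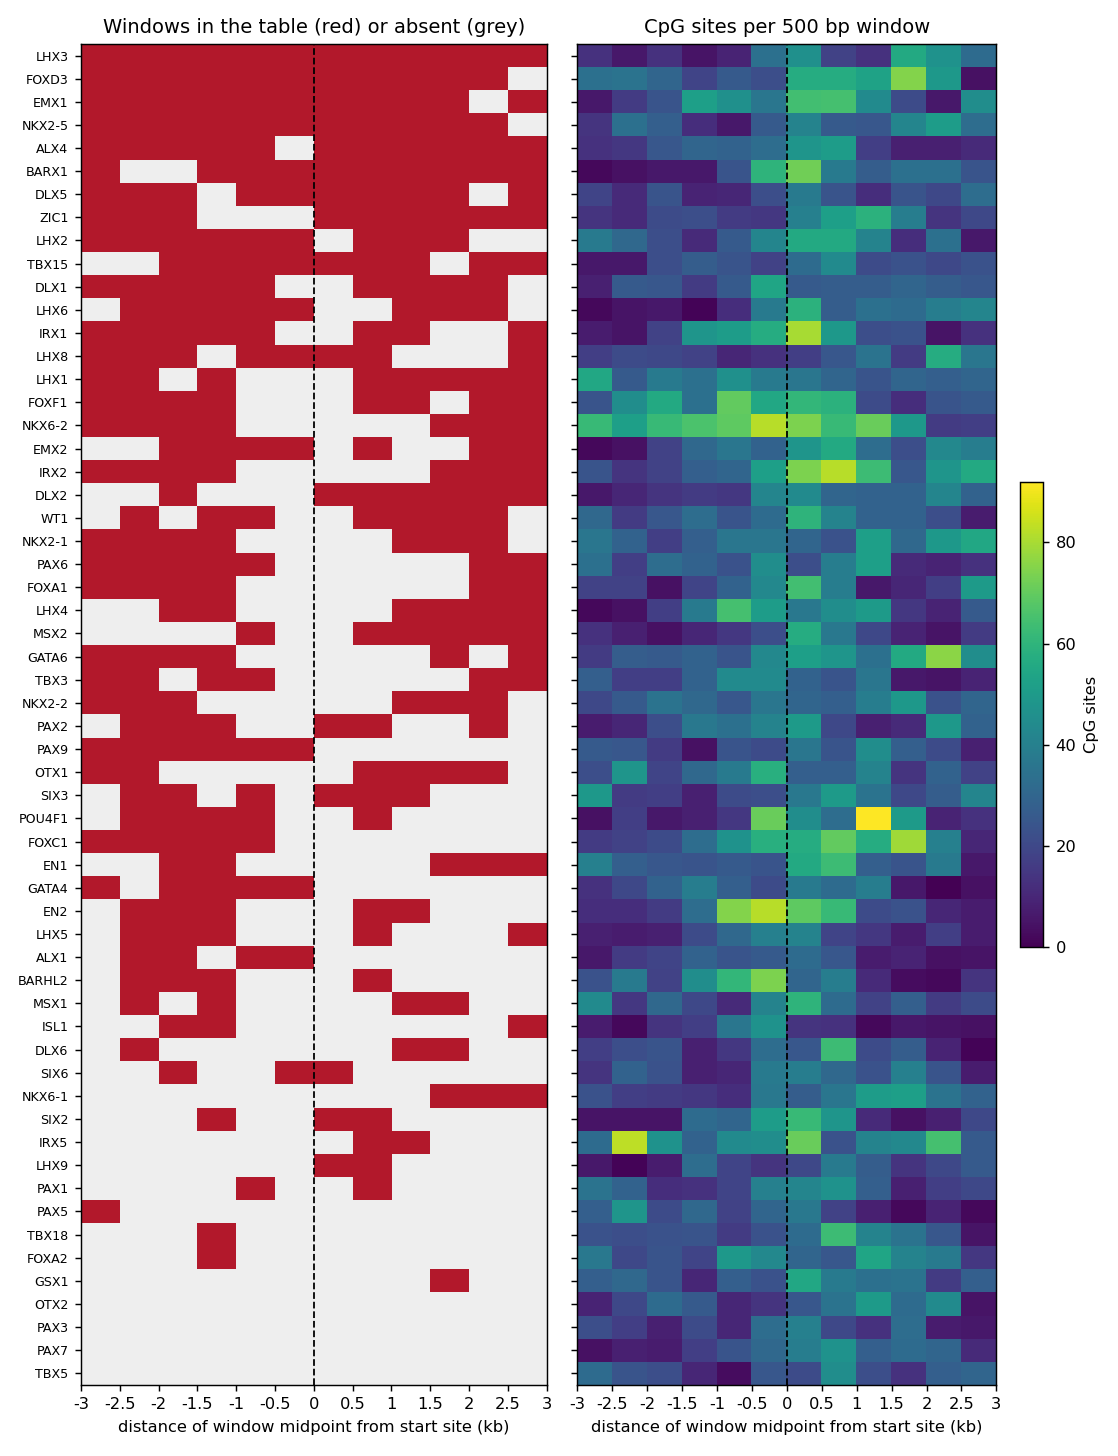
Left, the 12 windows of each of the 58 genes (rows, ordered by number listed) by distance of the midpoint from the start site (horizontal axis, kb), red where the window is listed and grey where it is absent. Right, the number of CpG sites in the same windows (colour scale). Listed windows form runs, up to 12 at LHX3 and 11 at FOXD3 and NKX2-5, and the brightest windows on the right are often grey on the left near the start.

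Some genes differed between the sides of the start. PAX9, a paired box factor of the teeth and thymus, had all 6 upstream windows listed and none of the 6 downstream. FOXC1, a forkhead factor of the anterior eye, had 5 upstream and 0 downstream. GATA4, a zinc finger factor of the heart and gut, also had 5 and 0, and ALX1, a homeobox factor of the face, had 4 and 0. The reverse was seen for DLX2, a factor of forebrain interneurons and the jaw, with 1 upstream and 6 downstream. MSX2, a homeobox factor of the skull, had 1 and 5. The canonical start lies 27243 bp inside the outermost 5′ end of the gene for GATA4 and 4292 bp inside it for PAX9, so their upstream windows are within the gene by other transcripts. The same holds for LHX2, LHX8, LHX9, OTX2, PAX2, PAX6 and ZIC1, while for FOXC1, ALX1, DLX2 and MSX2 the canonical start was the outermost 5′ end. For 33 of the 58 members the canonical start was the outermost 5′ end.

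By family, the paired box genes had the lowest share of listed windows, 26.2% (22 of 84 windows, interval 18.0% to 36.5%), with a ratio to the prediction of 0.62. PAX6, the factor of the eye, had 7 listed windows, PAX2, of the kidney, and PAX9 had 6 each, PAX1 had 2, PAX5 had 1 and PAX3 and PAX7 had 0. The 4 T-box genes had 33.3% (16 of 48, ratio 0.84), from 9 at TBX15 and 6 at TBX3 to 1 at TBX18 and 0 at TBX5. TBX3 and TBX5 lie in the same 10 Mb region of chromosome 12. SIX2, SIX3 and SIX6, factors of the eye, forebrain and kidney, had 33.3% (12 of 36, ratio 0.79), with 6 at SIX3 and 3 each at SIX2 and SIX6. SIX2 and SIX3 are neighbours on chromosome 2.

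The LIM homeobox genes, which specify neurons and other cell types, had 56.5% (61 of 108, interval 47.1% to 65.4%, ratio 1.51). After LHX3 and LHX2 came LHX1, LHX6 and LHX8 with 8 listed windows each, LHX4 with 6, LHX5 with 5, ISL1 with 3 and LHX9 with 2. The DLX genes, which pattern the jaw and forebrain and sit in pairs, had 60.4% (29 of 48, ratio 1.51). In the pair on chromosome 7 DLX5 had 10 and DLX6 had 3, and in the pair on chromosome 2 DLX1 had 9 and DLX2 had 7. The NKX genes had 56.7% (34 of 60, ratio 1.48), with 11 at NKX2-5, 7 at NKX2-1, the thyroid and lung factor, 7 at NKX6-2, 6 at NKX2-2 and 3 at NKX6-1, both factors of pancreatic islets and the spinal cord. The craniofacial and limb homeobox genes had 58.3% (35 of 60, ratio 1.54), with 11 at ALX4, 10 at BARX1, 6 at MSX2 and 4 each at ALX1 and MSX1.

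The forkhead genes had 51.7% (31 of 60, ratio 1.35), with 11 at FOXD3, 8 at FOXF1, a factor of lung and gut mesenchyme, 6 at FOXA1, 5 at FOXC1 and 1 at FOXA2. FOXA1 and FOXA2 are close relatives that open chromatin in endodermal organs. The IRX genes had 47.2% (17 of 36, ratio 1.44), with 8 at IRX1, 7 at IRX2 and 2 at IRX5. The GATA genes had 45.8% (11 of 24, ratio 1.21), with 6 at GATA6 and 5 at GATA4. The head and brain homeobox genes had 40.7% (44 of 108, ratio 1.08), with 11 at EMX1, 7 at EMX2, 6 at OTX1, 5 each at EN1, EN2 and POU4F1, 4 at BARHL2, 1 at GSX1 and 0 at OTX2. WT1, of the kidney and gonads, had 7 and ZIC1 had 9, together 66.7% (16 of 24, ratio 1.80). The interval of the ratio lay below 1 for the PAX genes. It lay above 1 for the LIM homeobox, NKX, DLX, forkhead, craniofacial and limb homeobox and zinc finger genes. For the other groups it held 1. The ratio of all protein-coding genes, 1.27, was within the interval of every family whose interval lay above 1. The intervals of the PAX genes, of SIX2, SIX3 and SIX6 and of the T-box genes lay below 1.27. The windows of a gene tend to be listed together, which makes all these intervals too narrow.

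Regions of the genome differ in how often their windows were listed. This was taken into account by scaling the prediction with the ratio of the 10 Mb region that holds each window, without the members' own windows. The regions are fixed segments laid from the start of the chromosome, so a gene can lie near the edge of its region. The regional ratio ran from 0.295 at ISL1 to 2.07 at SIX6, with a median of 0.916. This scaling changed the order of the families. The lowest ratio was then 0.69, at SIX2, SIX3 and SIX6, with the PAX genes at 0.71, and the highest was 1.84, at the DLX genes, with the zinc finger genes at 1.72. The forkhead genes moved from 1.35 to 1.10 and the GATA genes from 1.21 to 1.61. The regional ratio and the share of listed windows per gene had Pearson's r of 0.28 and Spearman's rho of 0.39 over the 58 members, which share the region where they are neighbours. OTX2 lies in a region with a ratio of 1.74 and had no listed window, and SIX6 at 2.07 had 3. The number of CpG sites within reach and the share of listed windows had r of 0.21 and rho of 0.25.

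By position in the canonical transcript, 44.8% of the members' windows in introns (100 of 223) and 45.9% of those in coding exons (34 of 74) were listed, where their CpG number and GC content predicted 39.02% and 34.97%. Windows in the 5′UTR were listed in 9 of 30 (interval 16.7% to 47.9%, predicted 38.4%) and windows in the 3′UTR in 45.0% (9 of 20, predicted 33.8%). The predicted share lay within the interval of the observed one in introns (38.5% to 51.4%) and in both UTRs, and just below it in coding exons (35.1% to 57.2%). The same classes were not counted for all protein-coding genes.

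Other gene lists were counted in the same way. Of the windows around 62 other paralogs of the same families 47.8% were listed, with a ratio of 1.34, and their start window was listed in 41.9% (26 of 62, interval 30.5% to 54.3%). HOX genes, 39 in number, had 49.8% and a ratio of 1.30, with 33.3% of start windows listed (13 of 39). The 32 genes of the Polycomb complexes had 46.4% and a ratio of 1.50, with 9.38% of start windows listed (3 of 32). The 76 cytosolic ribosomal protein genes had 44.8% and a ratio of 1.36, with 6.58% of start windows listed (5 of 76). In all 4 lists, as for the members, the share of listed windows was above the 38.1% of all protein-coding genes.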

How the data were processed

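The libraries were 50 bp single-end reads of FADU cells, 1 for each of 4 conditions. The authors mapped them to hg19 with Bowtie (version 0.12.7 in the submitters' processing notes), kept uniquely mapped and monoclonal reads and counted them in 500 bp windows with MEDIPS. The deposited table holds window positions and 4 columns of values whose names match no sample, so those 4 were left unused throughout. Its name hints at a minimum of reads per window, which was not tested. Only positions were analysed, so depth is not given, a low-depth window cannot be told from an unmarked one, and reads that map to several places leave repeats out.

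Windows were laid on GRCh37, and those with an undetermined base were left out. Start sites came from the canonical transcripts of GENCODE version 44 lifted to GRCh37. CpG number was capped at 40 and GC content taken in steps of 25 bases for the predicted share. Shares have 95% Wilson intervals. No test was run. The members, gene lists and families were chosen with earlier results of these data known. Named with values were the 10 members with the highest and the 10 with the lowest share, those with a listed start window and the 5 with the largest difference between the sides of the start, and every other member is given by its count. MSX2, tied with ALX1 in that difference, was added after its values were seen. The calculation of shares and ratios was tested on simulated data. Width, start site, chromosomes, prediction and genes compared were varied. Calculations used pandas 2.3.3 and NumPy 2.4.6 in Python 3.11.15, with SciPy 1.17.1, and figures Matplotlib 3.10.9.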

Additional observations from a re-analysis of the deposited data

How the results depend on the processing

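Of 250 alternative values 239 stayed within the interval of the reported one and on the same side, 8 moved and 3 reversed. For the median share per gene that interval took the width of the interval of the members' window share. It is not the spread of a median over genes. For the differences it was the interval of the members' share, with the share of the genes compared held fixed. Some of the 239 could not change. No window was shared by members, so leaving out shared windows had no effect, and the width does not alter start windows or distance bins. Most of the others left out a single chromosome or family, so the count is no measure of robustness. Within 1500 bp of the start in place of 3000 bp, the share of the members' windows listed was 43.1%, the median share per gene 33.3%, the ratio to the prediction 1.11 and the difference from all genes 4.48 percentage points. With the prediction taken from windows near coding start sites the ratio was 1.10. Here such windows are themselves the reference, matched in CpG number and GC content but not in distance from the start. With 40 or more CpG sites, 57 of the members' 160 windows lay within 500 bp of the start, against 14127 of 20352 for other genes. Listing was low there, at 21.1% and 19.5%. The ratio of 1.10 has no interval and is not read as an excess. This value cannot be set beside the 1.27 of all genes, which was taken against autosomal windows. With no prediction, against all autosomal windows, it was 2.68, the ratio of the bin from 2000 to 1500 bp upstream was 3.63 in place of 1.55, and that of the first 500 bp downstream turned from 0.76 to 1.57, since the autosomal windows have a mean of 4.97 CpG sites. The difference of 9.02 points from all genes became -1.91 against CpG-rich genes, -2.66 against HOX genes and 2.28 against ribosomal protein genes. Against autosomal genes it was 7.83. With each chromosome left out in turn the difference was 7.48 to 10.5 points, the ratio 1.17 to 1.26, the share of start windows listed 19.6% to 26.0%, and the ratio of the first 500 bp downstream 0.661 to 0.833. The comparison with CpG-dense windows was chosen after seeing the data, and so were its alternatives and the restriction to autosomes. The alternatives for differences between conditions were not run, since no column has a known sample. No paired analysis was possible because every condition has a single library whose column is unknown.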
